A study of Mus musculus with 4 samples.

Results

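The accessibility of E-box motifs named for Myc, Mycn, Max, Usf1, Usf2, Tfe3, Tfeb, Mitf, Srebf1 and Srebf2 was described in regulatory T cells (Tregs) of mouse spleen, with and without venetoclax. The members were the rows of the authors' chromVAR table whose factor symbol was on this list, which gave 11 of 1346 motif entries: 9 by the symbol as written and 2 by an older symbol, Tcfe3 for Tfe3 and Tcfeb for Tfeb. Srebf1 had 2 entries and every other factor had 1. The 11 entries held 11 distinct sets of scores, while the 1346 entries held 976. Ranks and shares over all motifs therefore count some sets more than once.

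ATAC-seq, in which a transposase cuts and tags open DNA in nuclei, was applied to CD4+ FOXP3+ Tregs from B6.Cg-Foxp3tm2Tch/J mice. These mice are wild type by the labels and carry GFP behind an internal ribosome entry site at Foxp3, the gene of the factor that defines Tregs. The mice of the 2 groups received vehicle or 50 mg/kg of venetoclax, a drug that blocks the survival protein BCL-2, for 14 days, with 2 samples per group. The labels name the samples as biological replicates but tie none to an animal and do not say whether animals were pooled. The p-values therefore speak only for these samples. They weigh the group difference against a spread between replicates that is partly shared over all motifs. The table holds motif scores alone, so the cells could not be checked against marker genes of Tregs. It has no read counts, and the depth of each sample is unknown. In such bulk samples a different mix of Treg subsets and a different accessibility per cell cannot be told apart.

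A chromVAR deviation score compares the accessibility of peaks that hold a motif in a sample with that expected from all samples scored together. A positive score is more accessible than this expectation and a negative score less, after correction by background peaks. Which samples were scored together is not known, so the sign of a score is relative to them. The score has no unit, and it belongs to a sequence pattern, not to the amount, activity or binding of the factor. Factors that read the same letters share peaks, so the 11 entries are not independent measurements.

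All of these factors are basic helix-loop-helix leucine zipper proteins, which bind DNA as dimers and read the E-box, with CACGTG as the form most of them share. Myc and Mycn pair with Max and drive ribosome production, metabolism and cell growth after T cell activation. Usf1 and Usf2 are widely expressed factors of metabolic and housekeeping promoters. Tfe3, Tfeb and Mitf control lysosome and autophagy genes and are kept in the cytoplasm by the nutrient sensor mTORC1. Srebf1 and Srebf2 are released from a membrane anchor when sterols are low, turn on fatty acid and cholesterol synthesis, and read the sterol element as well as the E-box. Lipid and mevalonate metabolism is known to matter for Treg function.

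The letters that these factors are known to read can be shown in promoters of genes they are known for, although the table gives no value for any single promoter. RefSeq promoters of assembly GRCm38.p6 were searched from 250 bases before to 50 after each start, on both strands, for CACGTG, which is its own reverse complement, for CATGTG, a form read by the Mitf family, and for the sterol element TCACNCCAC. CACGTG was found in 7.15% of 32851 promoters, CATGTG in 14.2% and TCACNCCAC in 1.24%, and 24 promoters held both CACGTG and TCACNCCAC. Of 7 lysosome genes found in the table, 4 held CACGTG (Ctsd, Gla, Lamp1 and Mcoln1). Of 7 growth genes, 3 held it (Cdk4, Eif4e and Ldha), and of the 8 factor genes found 1 held it (Max). Of 2 sterol genes, 1 held CACGTG (Insig1) and 1 held TCACNCCAC (Hmgcs1). CATGTG was held by 2 of the 7 lysosome genes (Gla and Neu1) and 1 of the 8 factor genes (Srebf1). It was held by 0 of the 7 growth genes and 0 of the 2 sterol genes. A gene counted if any of its promoters held the letters, so these counts are not comparable with the shares of single promoters. The lysosome, growth and sterol genes were also picked as known targets. Among sites whose printed 30 bases lie wholly before a start, those nearest to it are given, by list and by motif. They are printed on the gene's strand with the matched letters in capitals, as examples of the letters these factors are known to read. The letters of each scored entry were not used here, so how far an entry follows these patterns is not known.
Ldha, lactate dehydrogenase A, chr7:46845744-46845773, + strand: cggcccagcctaCACGTGggttcccgcacg
Lamp1, a lysosome membrane protein, chr8:13159121-13159150, + strand: gatgccgactggCACGTGaccacatcacgt
Gla, the lysosomal alpha-galactosidase, chrX:134601198-134601227, - strand: gagcatctacgtCATGTGagatctcggtca
Insig1, a sterol-sensing brake on Srebf processing, chr5:28071299-28071328, + strand: gctgggtgaggtCACGTGgctccggtggca
Hmgcs1, an enzyme of the mevalonate pathway, chr13:119690204-119690233, + strand: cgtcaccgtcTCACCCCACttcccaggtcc
Srebf1 itself, chr11:60210478-60210507, - strand: ctgctgattggcCATGTGcgctcacccgag
The site lay 22 bases before an annotated start in Lamp1, 42 in Ldha, 204 in Gla, 95 in Insig1, 128 in Hmgcs1 and 18 in Srebf1. The Ldha start used here lies inside the annotated span of the gene. A match is a description of these letters and not a measured binding site.

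The 4 samples did not fall into groups by treatment over all motifs. The vehicle samples correlated across motifs with Pearson's r = 0.60, and the venetoclax samples with r = 0.09. Venetoclax replicate 1 had r = 0.57 with vehicle replicate 1, while venetoclax replicate 2 had r = -0.74 with vehicle replicate 2. Venetoclax replicate 2 thus stood apart from the other 3 samples, and the difference of each member and the median of each list are also given without it. The median difference of all motifs, venetoclax minus vehicle, was -0.29 score units, and 38.7% of motifs had a positive difference. With each sample centred on its own median these values were -0.03 and 49.6%.

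The E-box members had higher mean scores with venetoclax than with vehicle, all 11 of them, with a median difference of 1.45 score units. In limma no member reached an adjusted p of 0.05, and 0 of the 1346 motifs (0%) did, while 246 had an unadjusted p under 0.05. Of the members, 6 had an unadjusted p under 0.05, all higher with venetoclax, where 6.39% of all motifs did so in that direction and 11.9% in the other. The 2 groups did not overlap, with venetoclax higher, for 9 members, beside 17.2% of all motifs. The mean of the 11 scores was -0.50 and -0.71 in the vehicle samples and 0.44 and 1.05 in the venetoclax samples. Within the members, the Usf, Mitf-family and Srebf entries had differences from 1.27 to 2.10, and Myc, Max and Mycn from 0.19 to 0.93. With each sample centred on its median the median difference of the members was 1.71. Without venetoclax replicate 2 it was 1.20, and all 11 differences were still positive. It was 1.45 without vehicle replicate 1, with 11 positive, and 1.71 without vehicle replicate 2, with 9 positive. Without venetoclax replicate 1 it was 1.78, with 10 positive.

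**Figure D1:**
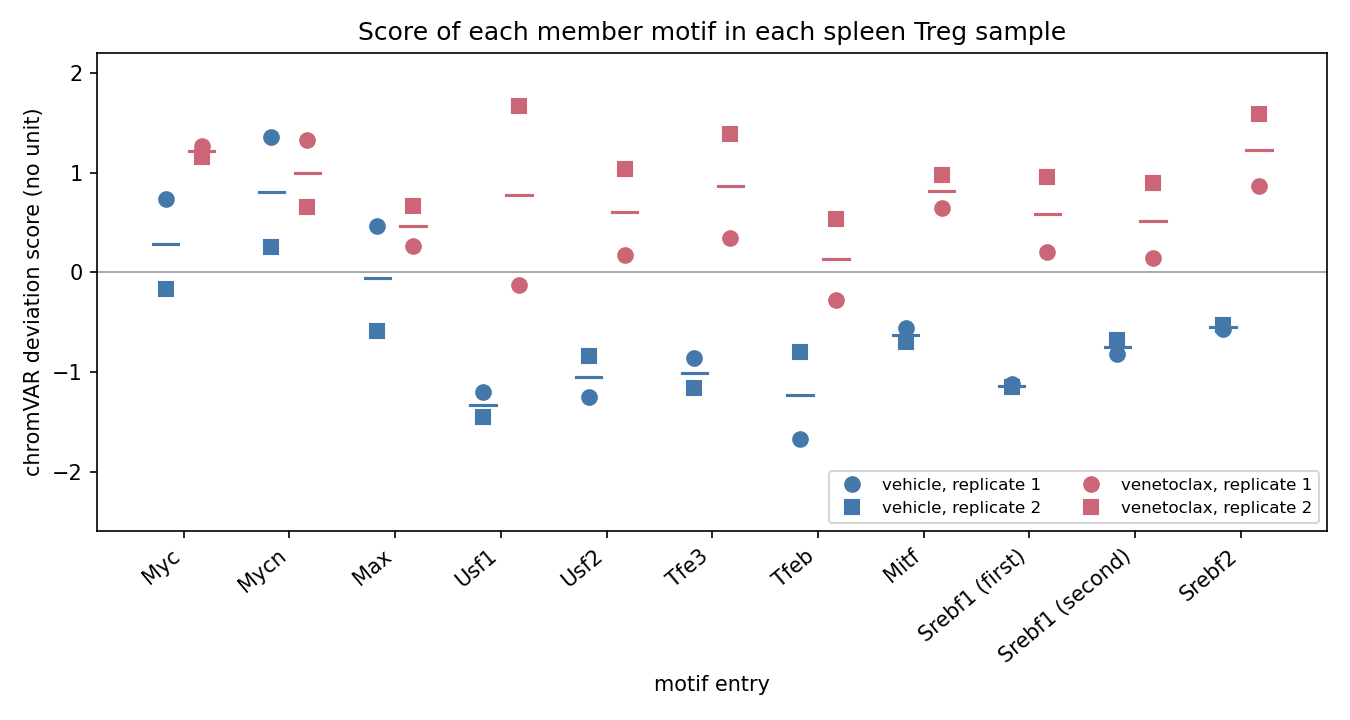
Deviation score (vertical axis, no unit) of each of the 11 member motif entries in the 2 vehicle samples (blue) and the 2 venetoclax samples (red), with circles for replicate 1, squares for replicate 2 and a short line at each group's mean of n = 2. The 8 Usf, Mitf-family and Srebf entries had both vehicle samples below 0 and below both venetoclax samples, and the groups overlapped for Mycn and Max.

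The Usf motifs gave the highest and the fifth highest difference of the members. Usf1 scored -1.21 and -1.45 in the vehicle samples and -0.13 and 1.67 in the venetoclax samples. Both vehicle samples were below both venetoclax samples, and venetoclax replicate 1 was close to 0. The difference was 2.10 (SE 0.74, 95% interval 0.57 to 3.63, limma adjusted p = 0.174, n = 2 each), the 20th highest of 1346. Without venetoclax replicate 2 it was 1.20. Usf2, which pairs with Usf1, scored -1.25 and -0.84 in the vehicle samples and 0.17 and 1.04 in the venetoclax samples. The groups were again apart, with a smaller distance between the venetoclax samples than for Usf1. The difference was 1.65 (SE 0.70, 95% interval 0.20 to 3.10, limma adjusted p = 0.233), and 1.22 without venetoclax replicate 2.

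In the motifs of the lysosome factors, too, both vehicle samples were below both venetoclax samples. Tfe3 scored -0.86 and -1.16 in the vehicle samples and 0.35 and 1.39 in the venetoclax samples. The groups lay on opposite sides of 0. The difference was 1.88 (SE 0.70, 95% interval 0.42 to 3.34, limma adjusted p = 0.178), and 1.36 without venetoclax replicate 2. Mitf, best known from pigment cells and mast cells, scored -0.56 and -0.70 in the vehicle samples and 0.65 and 0.98 in the venetoclax samples. Its replicates were close together in both groups. The difference was 1.45 (SE 0.68, 95% interval 0.02 to 2.87, limma adjusted p = 0.272), and 1.28 without venetoclax replicate 2. Tfeb scored -1.68 and -0.80 in the vehicle samples and -0.28 and 0.54 in the venetoclax samples. The groups did not overlap, with a gap of 0.51 between the nearest samples, but venetoclax replicate 1 was below 0. The Tfeb difference was 1.37 (SE 0.71, 95% interval -0.10 to 2.84, limma adjusted p = 0.319), and it was nearest to 0 without vehicle replicate 1, at 0.92, and 0.96 without venetoclax replicate 2. The interval of Tfeb therefore included 0, while those of Tfe3 and Mitf did not before adjustment.

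The sterol factors had some of the closest vehicle replicates. Srebf2, the main regulator of cholesterol synthesis genes, scored -0.57 and -0.53 in the vehicle samples and 0.87 and 1.59 in the venetoclax samples. The gap between the groups, 1.40, was the largest among the members. The difference was 1.78 (SE 0.69, 95% interval 0.34 to 3.22, limma adjusted p = 0.190), and 1.42 without venetoclax replicate 2. The first entry of Srebf1, LINE66 in the table, scored -1.13 and -1.15 in the vehicle samples and 0.20 and 0.96 in the venetoclax samples. Its difference was 1.72 (SE 0.69, 95% interval 0.28 to 3.16, limma adjusted p = 0.197). The second entry of Srebf1, LINE68, scored -0.82 and -0.68 in the vehicle samples and 0.14 and 0.89 in the venetoclax samples, a difference of 1.27 (SE 0.69, 95% interval -0.17 to 2.71, limma adjusted p = 0.355). In both entries of Srebf1 the groups lay on opposite sides of 0, and without venetoclax replicate 2 the differences were 1.34 and 0.89.

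The motifs of Myc, its partner Max and Mycn differed less between the groups. Myc scored 0.73 and -0.17 in the vehicle samples and 1.27 and 1.16 in the venetoclax samples. The venetoclax samples were close together and above both vehicle samples, by 0.43 at the nearest. The difference was 0.93 (SE 0.70, 95% interval -0.52 to 2.38, limma adjusted p = 0.527). It was 0.99 without venetoclax replicate 2 and 0.48 without vehicle replicate 2. Max scored 0.47 and -0.59 in the vehicle samples and 0.27 and 0.66 in the venetoclax samples. Vehicle replicate 1 lay between the venetoclax samples. The Max difference was 0.52 (SE 0.70, 95% interval -0.94 to 1.99, limma adjusted p = 0.732). It was 0.33 without venetoclax replicate 2 and -0.0032 without vehicle replicate 2. Mycn scored 1.35 and 0.25 in the vehicle samples and 1.33 and 0.65 in the venetoclax samples. Replicate 1 was the higher sample in both groups, and the groups overlapped. The Mycn difference was 0.19 (SE 0.71, 95% interval -1.29 to 1.67, limma adjusted p = 0.899). It was 0.53 without venetoclax replicate 2, -0.36 without vehicle replicate 2, -0.15 without venetoclax replicate 1 and 0.74 without vehicle replicate 1. For these 3 motifs a difference was not detectable with these samples, and the intervals allow differences of either sign. The intervals of Tfeb (-0.10 to 2.84) and the second Srebf1 entry (-0.17 to 2.71) do so too. No member passed the adjusted test in limma, so that test does not set these 3 motifs apart from the other members.

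**Figure D2:**
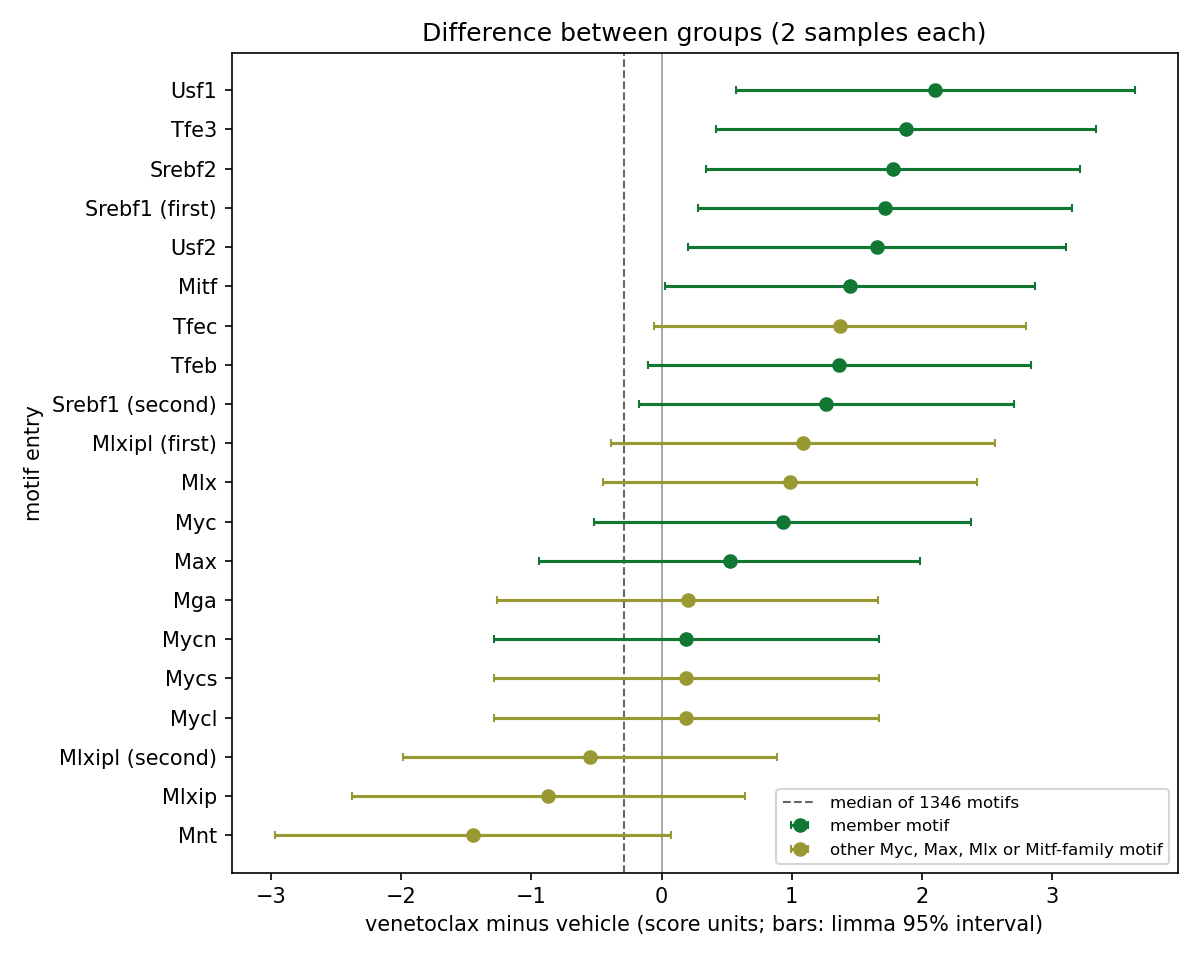
Difference in deviation score, venetoclax minus vehicle (horizontal axis, score units), with the limma 95% interval, for the 11 members (green) and 9 other entries of the Myc, Max, Mlx and Mitf-family network (olive), with the median of all 1346 motifs at -0.29 as a dashed line. The intervals of 6 members, from Usf1 at 2.10 to Mitf at 1.45, lie above 0, and Mnt at -1.45 is the lowest.

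The order of the members by difference was Usf1, Tfe3, Srebf2, the first Srebf1 entry, Usf2, Mitf, Tfeb, the second Srebf1 entry, Myc, Max and Mycn. Each neighbouring pair in this order differed by less than the standard error of either. The first 8 ranked from 20 to 115 among 1346 motifs, Myc 181, Max 311 and Mycn 459. Both vehicle samples were below 0 and both venetoclax samples above 0 for 6 members, namely Usf2, Tfe3, Mitf, Srebf2 and both Srebf1 entries, beside 6.61% of all motifs. The groups were on opposite sides of 0 for none of Myc, Mycn and Max.

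**Figure D3:**
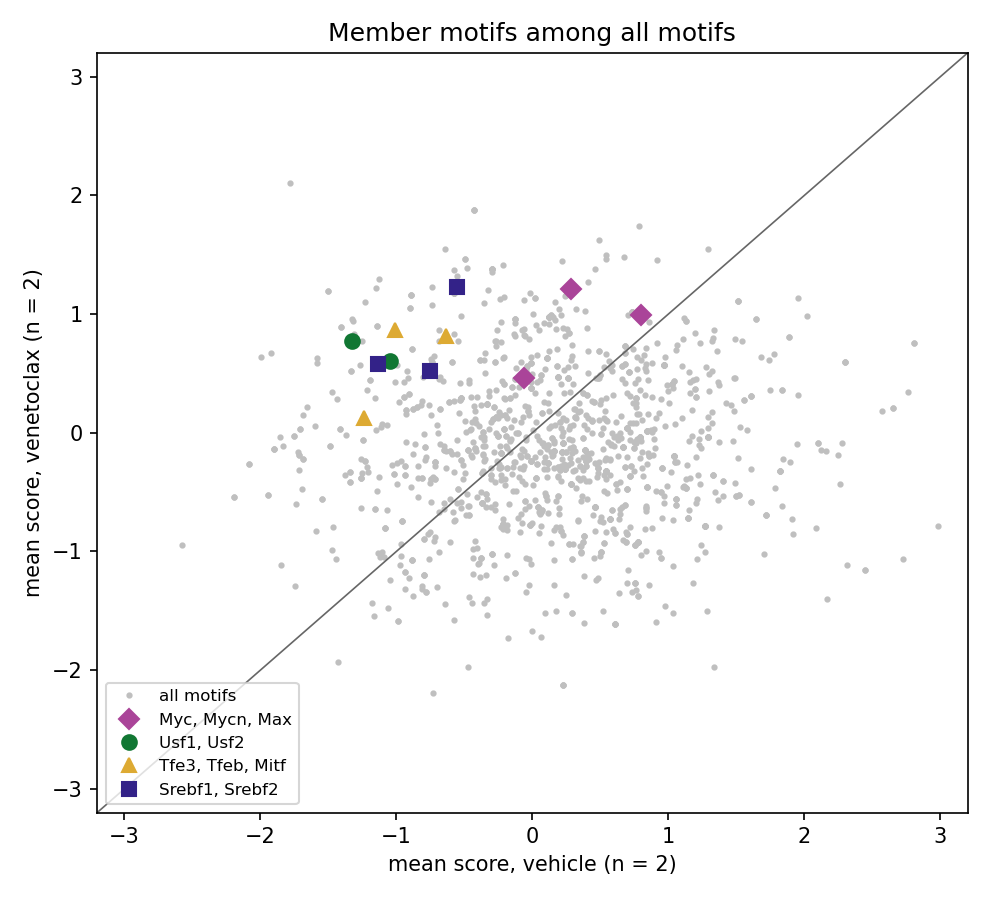
Mean score with venetoclax against mean score with vehicle (n = 2 each) for all 1346 motif entries (grey), with members coloured by family and the line of equal scores. The 8 Usf, Mitf-family and Srebf entries lie together at the upper left, with negative vehicle means and positive venetoclax means, while Mycn lies close to the line.

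The members also differed in how alike their 4 scores were. As a distance over the 4 samples (the root of the summed squared score differences), the first Srebf1 entry was closest to Usf2, at 0.35, and the second Srebf1 entry was 0.49 from Usf2. The 2 entries of Srebf1 were 0.57 apart. Usf1 and Usf2, which form a heterodimer, were 0.93 apart, and Tfe3 and Tfeb 1.38. Myc was nearest to Mycn, at 0.91, and the pair furthest apart was Tfeb and Mycn, at 3.59. These distances rest on 4 values per motif and on peaks that the motifs share.

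Outside the members, the 5 sets of scores nearest to the members' mean profile were those of Maf and Mafa (distance 0.25), Runx3 (0.28), Tfec (0.28), Ikzf1 and Ikzf4 (0.38) and Mixl1 (0.45). Their differences were 1.19, 1.41, 1.37, 1.33 and 1.37. Tfec is a Mitf-family factor. Maf is a leucine zipper factor that reads another site, Runx3 a runt-domain factor and Ikzf1 the lymphoid zinc finger factor Ikaros, so scores of this pattern occurred in entries of other factor families too.

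The other factors of the same network gave 9 entries, of which 6 had a positive and 3 a negative difference, with a median of 0.19. This median was 0.51 without venetoclax replicate 2, -0.15 without venetoclax replicate 1, 0.74 without vehicle replicate 1 and -0.29 without vehicle replicate 2. None passed the adjusted test, and none had an unadjusted p under 0.05. Tfec, listed under its older symbol Tcfec, scored -0.72 and -0.77 in the vehicle samples and 0.33 and 0.91 in the venetoclax samples, a difference of 1.37 (SE 0.69, limma adjusted p = 0.306) close to those of Mitf and Tfeb, and 1.08 without venetoclax replicate 2. Mycl and Mycs, relatives of Mycn, had exactly the scores of Mycn. Their difference of 0.19 is also the median of the list, so that median and these positive entries repeat a member. Mlx, the partner of the glucose-responsive factors Mlxip and Mlxipl, differed by 0.99 (SE 0.69). The first of 2 Mlxipl entries, LINE126, differed by 1.09 (SE 0.71) and the second, LINE127, by -0.55 (SE 0.69). Mga, a Max partner that represses transcription, differed by 0.20 (SE 0.70), and by -0.15 without venetoclax replicate 2. Mlxip differed by -0.87 (SE 0.73), and by -0.065 without venetoclax replicate 2. The same omission left the first Mlxipl entry at 0.51 and Mlx at 0.66.

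Mnt, a Max partner that opposes Myc, had the lowest difference of the network. It scored 1.18 and 1.56 in the vehicle samples and 0.77 and -0.93 in the venetoclax samples. Both venetoclax samples were below both vehicle samples, and replicate 2 was the further one. The difference was -1.45 (SE 0.73, 95% interval -2.97 to 0.07, limma adjusted p = 0.307). It was -0.60 without venetoclax replicate 2, -2.30 without venetoclax replicate 1 and -1.19 with each sample centred on its median. The lower non-overlapping direction was found for 31.1% of all motifs.

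Other helix-loop-helix lists are given side by side, without a test between lists. The PAS and clock factors had 14 entries with 11 positive differences and a median of 0.39, which was 0.04 without venetoclax replicate 1 and 0.73 without replicate 2. Their entries furthest from 0 were Ahr and Ahrr, with the same scores and a difference of 1.82 (SE 0.72), and the clock factor Arntl at 1.57 (SE 0.71). The Hes, Hey and Bhlhe40 repressors had 9 entries with 3 positive differences and a median of -0.67 (-1.56 without venetoclax replicate 1 and -0.33 without replicate 2), and Hey1, Hey2 and Heyl shared a difference of -1.70 (SE 0.80). The 3 positive entries of that list were Bhlhe41 (1.37, SE 0.70), Bhlhe40 (1.17, SE 0.69) and Hes7 (0.48, SE 0.74), named after their values had been seen. The E proteins with Id factors and Zeb1, which are tied to E-boxes with other central letters, had 10 entries with 8 positive differences and a median of 1.17 (0.96 without venetoclax replicate 2). They were led by Zeb1 at 2.28 (SE 0.73) and by Id1 and Id2, with the same scores, at 1.95 (SE 0.72). None of these entries passed an adjusted p of 0.05 in limma. Positive differences of the members' size therefore also occurred among entries of the E protein list.

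**Figure D4:**
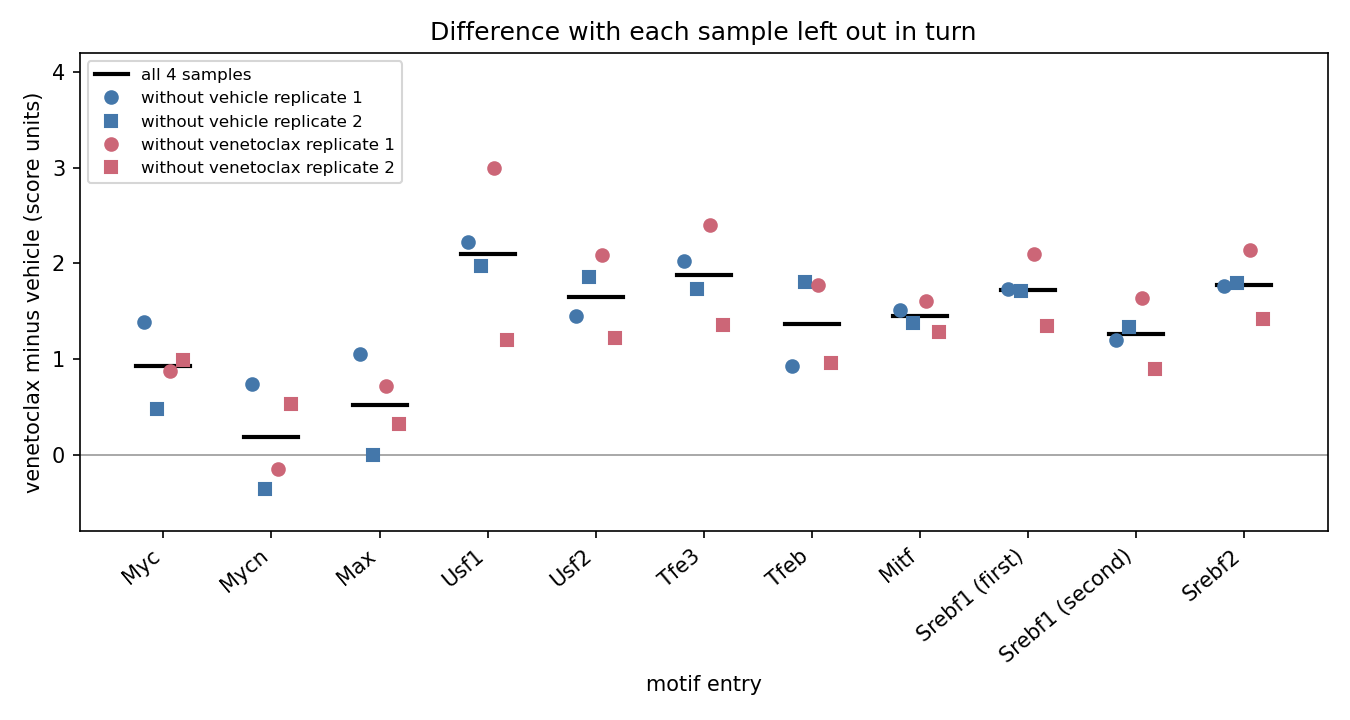
Difference in score, venetoclax minus vehicle (vertical axis, score units), for each member with all 4 samples (black line) and with each sample left out in turn (blue for a vehicle sample, red for a venetoclax sample, circle for replicate 1 and square for replicate 2). Usf1 moved most, from 1.20 to 3.0, Mitf least, from 1.28 to 1.61, and Mycn and Max went to or below 0 without vehicle replicate 2.

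The size of the differences depended on single samples. Usf1 ranged from 1.20 without venetoclax replicate 2 to 3.0 without venetoclax replicate 1. Mitf ranged from 1.28 to 1.61 and Srebf2 from 1.42 to 2.14, and the first Srebf1 entry from 1.34 to 2.10. Where the groups do not overlap, leaving out a sample cannot turn the sign, so the sign of the 9 members without overlap is no sign of stability. Without venetoclax replicate 1, limma called 5 members at an adjusted p of 0.05 (Usf1, Tfe3, Srebf2, Usf2 and the first Srebf1 entry) among 337 of 1346 motifs, a fit in which the lone venetoclax sample is assumed to vary like the vehicle samples. With a trended and robust variance limma called Usf1 (adjusted p = 0.0208) and Tfe3 (adjusted p = 0.0329) among 74 motifs.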

How the data were processed

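ATAC-seq libraries of spleen Tregs, 2 per treatment group, were described by a deposited table. It holds, per the file's name, the authors' chromVAR deviation score for each motif and sample, together with the authors' group means and difference. Bowtie2, Picard, MACS2 and mm10 are named, per the submitters' processing notes, without versions or roles. Not given in the sources used here are the read filters, peak set, motif collection, chromVAR version, the samples scored together and whether the score is a z-score. Of the table's sample columns, 8 matched no described sample and were not used.

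The deposited scores were tested unchanged and unfiltered by limma 3.58.1 (lmFit, eBayes) under R 4.3.3. Its two-sided p-values were adjusted by Benjamini-Hochberg over all 1346 entries, with a threshold of 0.05. An exact permutation test of 2 against 2 samples cannot go below p = 0.333, so none was run. The limma code was run on simulated scores with known changes, independent noise and the same spread in both groups. In the data motifs share peaks, and the median SD over motifs was 0.60 with venetoclax and 0.38 with vehicle. The simulation therefore does not vouch for the p-values given here. The depositors' differences equalled those computed here within 1e-09.

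Symbols were matched to RefSeq names (GRCm38.p6). The members and lists were chosen with earlier results of these data known, so counts over them are descriptions. The rule named every member, every other network entry, up to 3 entries per compared list by absolute difference, and the 5 nearest score sets. Promoter gene lists came from general knowledge. The alternatives tried were centring on the median, scaling by the SD, quantile normalization, leaving out each sample, a replicate block, an unmoderated linear model, a robust trended variance and counting each distinct set of scores once. Added after the data were seen were the crossed pairing and members by written symbol only.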

Additional observations from a re-analysis of the deposited data

How the results depend on the processing

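The count of motifs past an adjusted p of 0.05 in limma was 0 with all 4 samples, 74 with a trended and robust variance, and from 0 to 337 with a sample left out. For the 11 members it was 0, 2 with the trended and robust variance, and from 0 to 5 with a sample left out. The number of members at an unadjusted p under 0.05 was 6, beside 246 of all 1346 motifs in either direction. It was 3 in an ordinary linear model (92 of all motifs) and 7 with the trended and robust variance (278). It was 8 with centring (215 of all motifs) and 8 with quantile normalization (203). The replicate number as a block gave 5 such members (100 of all motifs) and 0 past the adjusted threshold. These counts at an unadjusted p use all 4 samples. The members' count was lower without vehicle replicate 1, vehicle replicate 2 or venetoclax replicate 2, and higher without venetoclax replicate 1. Such fits leave a group with no spread of its own, so their unadjusted counts are not given. Same-numbered samples tended to deviate in opposite directions (r = -0.27 across motifs). With 2 samples a group this cannot show whether the numbers pair the samples. The crossed pairing in limma called 0 of 1346 motifs, with 6 members and 258 of all motifs at an unadjusted p under 0.05. The members' median difference, 1.45 with all samples, ranged from 1.20 to 1.78 over the alternatives run. The block, the trended and robust variance and the ordinary linear model cannot change it. Its range is therefore no sign of stability. With members matched by the written symbol alone the 9 entries had 5 at an unadjusted p under 0.05.

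With a sample left out, single motifs ranged across 0: Max from -0.0032 to 1.05, Mycn, Mycl and Mycs each from -0.36 to 0.74, and Mga from -0.24 to 0.64. Max was negative without vehicle replicate 2. Mycn, Mycl and Mycs were negative without vehicle replicate 2 and without venetoclax replicate 1 (-0.15), and Mga without replicate 2 of either group (-0.15 without that of venetoclax). The cause was not tested. Depth is unknown. With 2 samples a group the 95% interval of a member had a median half-width of 1.45 score units.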
